A study of Mus musculus with 54 samples.

Results

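The genes described here act in G2 and mitosis, the last stretch of the cell cycle, in which a cell checks its copied DNA, builds a spindle and divides. They were chosen by name: 44 genes were listed for their known roles, with earlier results of these data known. Array probes were matched by their annotated gene symbol, updated through RefSeq, and each gene was read from its brightest probe. Of the 44, 41 had a probe and 39 passed the filter on dim genes, out of 12792 genes tested and 16637 named on the array. No probe carried the symbol of Ccnb1 (cyclin B1), Foxm1 (a transcription factor of G2 genes) or Espl1 (separase, which opens the ring between sister chromatids), and these were not analysed here. Nek2, a centrosome kinase, and Cenpf, a kinetochore protein, lay below the filter and were not tested. On the array values used throughout, log2(intensity + 16), Nek2 ran from 4.06 to 4.83 in DMSO cells and Cenpf from 4.57 to 6.46.

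Entry into mitosis is driven by the kinase Cdk1 bound to cyclin A or cyclin B and switched on by Cdc25 phosphatases. Plk1 and the Aurora kinases then order spindle assembly, chromosome condensation and cytokinesis, while the spindle checkpoint holds back the anaphase-promoting complex until every kinetochore is attached. Transcripts of these genes rise together late in each cycle and are low in cells that have stopped dividing. Growth-arrested 3T3-L1 cells are known to divide again soon after adipogenic inducers are added, a phase called mitotic clonal expansion, and to leave the cycle as they become fat cells.

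The cells were 3T3-L1, a mouse fibroblast-like preadipocyte line from ATCC that turns into fat cells in culture. RNA was taken at 18 times from 0 to 288 h in 3 arms: an untreated control undergoing normal differentiation, cells in 0.5% DMSO (the vehicle), and cells in 2 µM prieurianin, a plant limonoid. There was 1 single-colour array per arm and time, 54 in all. The labels give no genotype or age, do not say whether the treated arms received the inducers together with the control, and do not say whether cultures were separate, so the times of a window are used in place of replicates. P-values therefore measure only the spread between times, and neighbouring times are not independent.

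Median intensity per array ran from 88 to 313 before normalisation, and any pair of arrays correlated with an r of 0.893 to 0.996. All 8 preadipocyte or fibroblast markers were bright at 0 h, from 13.06 to 15.97. Of the markers of other cell types, 2 of 5 for macrophages, 3 of 4 for endothelium, 2 of 4 for epithelium and 2 of 4 for muscle lay below the filter. The array labelled prieurianin at 192 h stood apart from the later arrays of its arm: it correlated best with untreated cells at 144 h (r = 0.971), and its mean over 8 adipocyte markers was 14.03 against 10.53 at 240 h and 10.23 at 288 h. Some results at 192 to 288 h, among them the main counts, are therefore given with and without that array. The remaining prieurianin values at these times include it. In bulk RNA, fewer dividing cells and less of a transcript in each dividing cell cannot be told apart.

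The listed genes share promoter letters that the choice by name did not use. RefSeq windows from 250 bases before to 50 after the transcript start (GRCm38.p6) were matched for 36 of the genes, 38 windows in all. TTTGAA is the core of an element known as the cell cycle genes homology region, and CCAAT is the box bound by NF-Y; both were searched on both strands, and matches may share a base. TTTGAA occurred in 29 of the 38 windows (76.3%), against 17.9% of all 32851 windows. CCAAT occurred in 31 (81.6%), against 37.4%. Both occurred in 26 (68.4%), against 6.95%. In windows of DNA replication genes TTTGAA was found in 8.7% of 46, and in those of other G2 and mitosis genes in 47.5% of 80. The reverse held for letters typical of E2F sites (TTTGGCGC, TTTCCCGC, TTTCGCGC or TTTGCCGC, both strands), present in 5.26% of the listed genes' windows, 32.6% of the replication genes' windows and 2.26% of all. A match is a description of letters and not of a bound site.

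Of the promoters, 7 are shown because their genes carry the results below, each as the 230 bases from 200 before the start on the gene's own strand, with capitals marking the matches of either motif on either strand. Top2a, Kif11, Ttk, Mki67 and Cdc20 hold both motifs. Ncaph and Birc5 hold neither.
Top2a, chr11:99024160-99024389, minus strand: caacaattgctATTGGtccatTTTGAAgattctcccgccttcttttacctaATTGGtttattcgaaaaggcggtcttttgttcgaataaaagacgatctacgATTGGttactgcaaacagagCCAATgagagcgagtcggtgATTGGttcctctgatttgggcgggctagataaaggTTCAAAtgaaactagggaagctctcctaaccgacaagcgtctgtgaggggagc
Kif11, chr19:37376182-37376411, plus strand: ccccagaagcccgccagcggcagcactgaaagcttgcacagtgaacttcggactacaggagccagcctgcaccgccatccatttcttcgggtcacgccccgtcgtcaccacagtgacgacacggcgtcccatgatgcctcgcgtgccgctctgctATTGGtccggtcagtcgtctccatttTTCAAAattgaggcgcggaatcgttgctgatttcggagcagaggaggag
Ttk, chr9:83834489-83834718, plus strand: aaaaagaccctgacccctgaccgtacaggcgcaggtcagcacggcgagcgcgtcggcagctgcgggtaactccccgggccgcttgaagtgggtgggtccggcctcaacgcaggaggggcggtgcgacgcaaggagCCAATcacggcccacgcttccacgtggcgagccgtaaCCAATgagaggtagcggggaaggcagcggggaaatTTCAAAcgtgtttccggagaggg
Mki67, chr7:135716350-135716579, minus strand: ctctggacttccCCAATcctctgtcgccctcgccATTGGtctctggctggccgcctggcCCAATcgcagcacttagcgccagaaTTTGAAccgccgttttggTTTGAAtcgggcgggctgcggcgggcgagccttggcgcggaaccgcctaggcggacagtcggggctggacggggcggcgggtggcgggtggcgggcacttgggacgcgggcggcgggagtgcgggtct
Cdc20, chr4:118437314-118437543, minus strand: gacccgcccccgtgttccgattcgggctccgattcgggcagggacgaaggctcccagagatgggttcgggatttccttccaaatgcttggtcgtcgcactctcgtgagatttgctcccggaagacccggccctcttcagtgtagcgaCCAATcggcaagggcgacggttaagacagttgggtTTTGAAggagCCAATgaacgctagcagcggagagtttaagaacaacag
Ncaph, chr2:127133925-127134154, minus strand: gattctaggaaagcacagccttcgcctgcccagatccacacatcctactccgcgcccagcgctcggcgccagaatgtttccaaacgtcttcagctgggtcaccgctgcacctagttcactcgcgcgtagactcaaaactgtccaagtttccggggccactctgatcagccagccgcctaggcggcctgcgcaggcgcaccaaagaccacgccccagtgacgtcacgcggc
Birc5, chr11:117849037-117849266, plus strand: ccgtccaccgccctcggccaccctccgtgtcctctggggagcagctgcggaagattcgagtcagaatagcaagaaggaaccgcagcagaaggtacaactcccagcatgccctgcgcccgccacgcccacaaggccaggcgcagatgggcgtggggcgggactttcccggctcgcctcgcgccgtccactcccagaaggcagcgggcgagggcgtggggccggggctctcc
In Top2a the TTTGAA matches begin 179 and 23 bases before the start, and in Mki67 116 and 98 bases before it. Kif11 has its match 19 bases and Cdc20 18 bases before the start, while that of Ttk begins 7 bases after it. Prieurianin minus DMSO at 9 to 15 h was -1.19 for Ncaph and -0.96 for Birc5, with no match in these letters. It was -1.53 for Top2a, which holds both motifs. Differences of genes with and without the motifs were not compared.

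Averaged over the 39 tested genes, the arrays traced a dip, a wave, a long decline to 192 h and a rise after it. The mean log2 value at 0 h was 11.07 in untreated, 11.03 in DMSO and 11.04 in prieurianin cells. It was 10.29, 10.31 and 10.33 at 3 h, and the 3 arms stayed within 0.12 of each other from 2 to 5 h. In the controls it was 10.93 and 11.04 at 12 h, 11.30 and 11.32 at 15 h, and highest at 24 h (11.80 and 11.70). In prieurianin cells it was still 10.31 at 12 h and was 11.54 at 24 h. By 144 h the means were 9.60 in untreated, 9.85 in DMSO and 9.64 in prieurianin cells. The arms parted again at 192 h (8.18, 8.41 and 9.56), where each arm was lowest. After 192 h the mean rose in all 3 arms, to 8.82, 8.79 and 9.82 at 240 h and 9.38, 9.14 and 10.63 at 288 h. The prieurianin value of 9.56 is from the 192 h array that stood apart, and it lay near the control means at 144 h. Without that array the parting is first seen at 240 h, and the lowest prieurianin mean is 9.64, at 144 h.

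**Figure D1:**
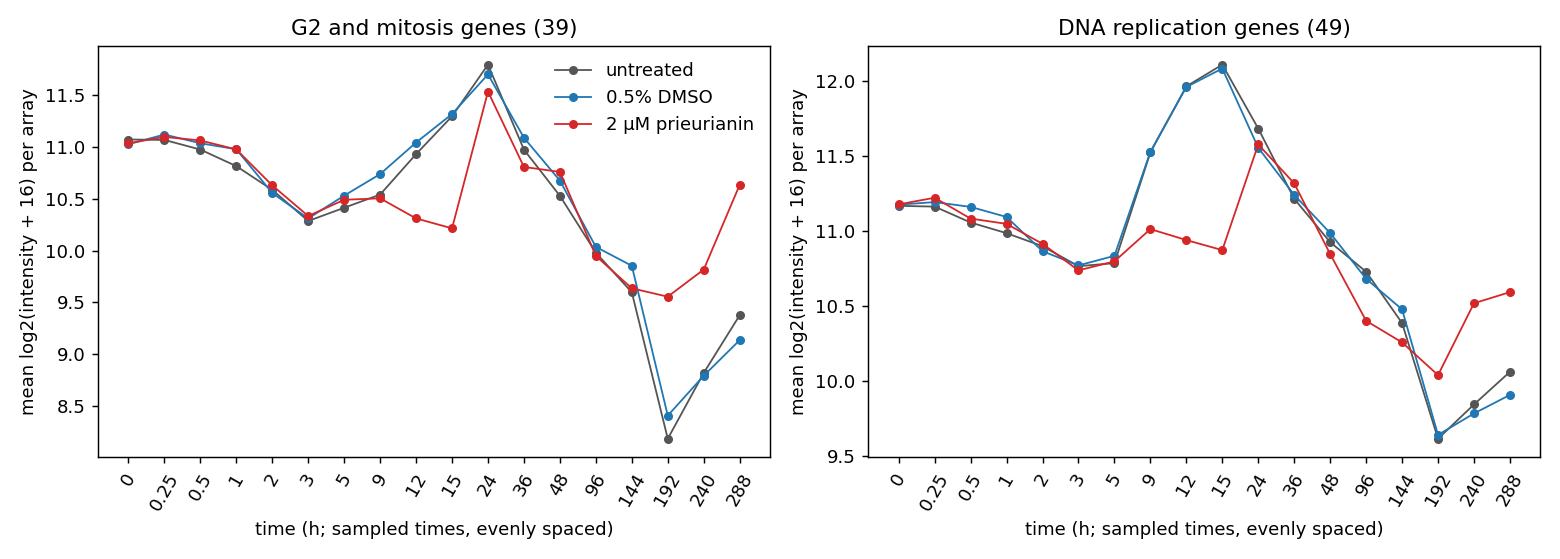
Mean log2(intensity + 16) per array over the tested G2 and mitosis genes and over the 49 tested DNA replication genes, against the sampled times (evenly spaced, in h), with 1 point per array and 1 line per arm. The prieurianin line lies under both controls at 12 and 15 h, comes near them at 24 h, and lies above them from 192 to 288 h.

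The first question was how the mitotic genes ran over the course in each arm. From 0-1 h to 2-5 h 7 of the 39 fell in untreated cells (6.59% of all genes were called lower by limma), 3 in DMSO cells (6.13%) and 6 in prieurianin cells (6.68%), with medians of -0.57, -0.56 and -0.54. Without 3 h or without 5 h no listed gene was called in that step in any arm, and with median centring the counts were 0, 0 and 3. From 2-5 h to 12-24 h, 25 of the 39 rose in untreated cells, with a median change of 1.00, where 8.43% of all tested genes were called higher (limma, Benjamini-Hochberg adjusted p under 0.05, in a fit to all 54 arrays). In DMSO cells 20 rose, with a median of 0.91, against 7.11% of all genes, and all 39 estimates lay above 0. In prieurianin cells none was called (limma), with a median of 0.22, 1 at an unadjusted p under 0.05 and 5.72% of all genes called higher. Quantile normalisation holds the median of all genes near 0 (0.03 in untreated and 0.04 in DMSO cells). On values as deposited it was 0.35 and 0.24, and the listed genes had medians of 1.39 and 0.99. The counts leaned on single times: the untreated count was 14, 15, 16 and 13 without 3, 5, 15 and 24 h, and the DMSO count was 6 without 3 h and 12 without 24 h. With each array centred on its median instead, the DMSO count was 5.

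**Figure D2:**
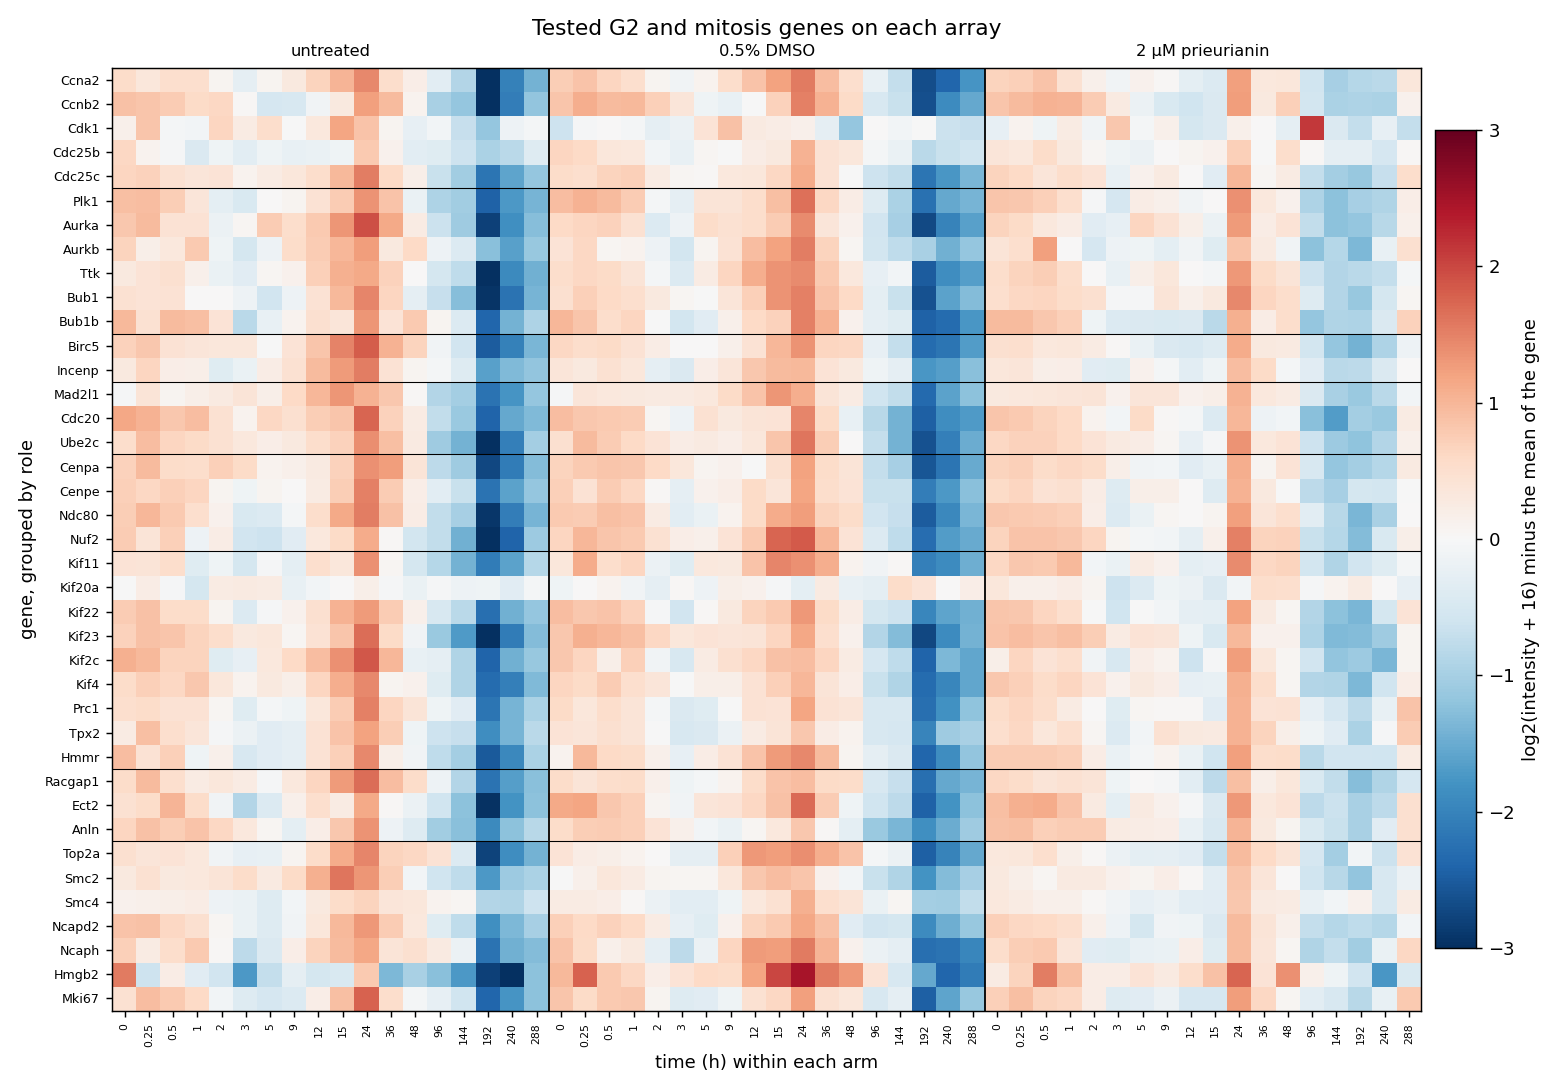
Each row is 1 tested gene, grouped by role, and each column 1 array, ordered by time (h) within the 3 arms; colour is log2(intensity + 16) minus the mean of that gene over all arrays. Columns at 0 to 1 h and 36 h are red in all arms; the deepest red lies at 15 and 24 h in both controls and at 24 h in prieurianin cells, where 12 and 15 h are pale, and the darkest blue lies at 192 h in the controls.

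Among the genes of chromosome structure, Ncaph, a subunit of the condensin I complex that compacts chromosomes, had the largest rise in DMSO cells, 1.77 ± 0.30 (standard error of the fit, adjusted p 7.7e-05). Top2a, the topoisomerase that untangles sister DNA, rose by 1.49 ± 0.30 (adjusted p 0.00058). In untreated cells these rises were 1.32 and 1.23, both called, and in prieurianin cells the estimates were 0.56 and 0.10, neither called. Hmgb2, a chromatin protein that bends DNA, rose by 1.48 ± 0.48 in DMSO cells (adjusted p 0.031) and was not called in untreated cells (0.94 ± 0.48).

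Of the kinases, Aurkb, the kinase of the chromosomal passenger complex, rose by 1.42 ± 0.31 in DMSO and 1.27 ± 0.31 in untreated cells. Ttk, the checkpoint kinase also called Mps1, rose by 1.37 ± 0.29 and 1.13 ± 0.29. Kif11, the motor that pushes spindle poles apart, rose by 1.31 ± 0.34 and 0.96 ± 0.34. In prieurianin cells the estimates for these 3 genes were 0.38, 0.43 and 0.30, and none was called. The passenger partner Incenp, which anchors Aurkb, had the smallest adjusted p of the listed genes in untreated cells (1.38 ± 0.24, adjusted p 8.9e-05). Genes at the other end of the list moved little in this step: in DMSO cells Kif20a, a motor of the central spindle, gave 0.06 ± 0.18, Cdk1 0.22 ± 0.38, the centromere histone Cenpa 0.22 ± 0.35 and the cleavage furrow protein Anln 0.24 ± 0.30, none called.

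When the wave came was read gene by gene as a midpoint time: the first sampled time from 9 to 48 h at which a gene was at least midway from its own mean at 2-5 h to its own highest value, for genes that rose by at least 1 on the log2 scale. The rise from 2-5 h to the highest value had a median of 1.49 in untreated, 1.34 in DMSO and 1.12 in prieurianin cells, against 0.40, 0.37 and 0.39 over all tested genes. The midpoint could be read for 34, 30 and 25 of the 39 genes. Its median was 15 h in untreated cells, 15 h in DMSO cells and 24 h in prieurianin cells. In untreated cells the numbers of genes that passed it at 9, 12, 15 and 24 h were 1, 7, 17 and 9, and in DMSO cells they were 3, 11, 10 and 6. In prieurianin cells 24 of the 25 passed it at 24 h. The exception was Tpx2, which loads and activates Aurora A on spindle microtubules, at 9 h.

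**Figure D3:**
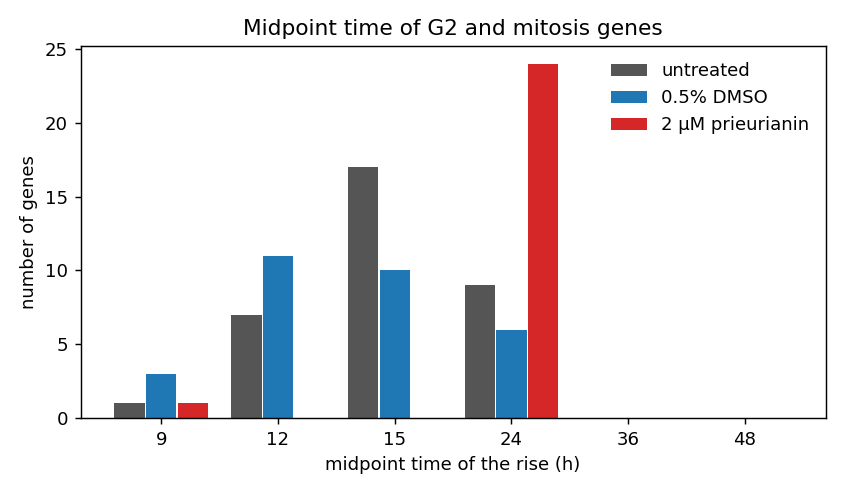
Number of G2 and mitosis genes (vertical axis) whose rise passed its midpoint at each sampled time from 9 to 48 h, with 1 bar per arm. The untreated and DMSO bars spread from 9 to 24 h, and 24 of 25 prieurianin genes stand at 24 h.

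Among the 25 genes readable in both, the midpoint was later in prieurianin than in DMSO cells for 21 (84%), equal for 3 and earlier for 1. Over all tested genes with such a rise in both arms it was later for 306 of 769 (39.8%). Against untreated cells it was later for 19 of 25 (76%), against 50.5% of all genes. Aurkb passed its midpoint at 9 h in untreated, 12 h in DMSO and 24 h in prieurianin cells. Top2a and Ncaph passed theirs at 9 h in DMSO cells, at 15 h and 12 h in untreated cells, and both at 24 h in prieurianin cells. Ube2c, the ubiquitin-conjugating enzyme of the anaphase-promoting complex, passed it at 24 h in all 3 arms. The highest value fell at 24 h for 36 genes in untreated, 34 in DMSO and 37 in prieurianin cells, so the highest sampled value mostly fell at the same time. At 24 h 30 of the 39 genes lay lower with prieurianin than in DMSO cells (median -0.13) and 30 lower than in untreated cells (median -0.29). No array lies between 15 and 24 h. With 1 level for all arms, set from the DMSO cells, the midpoint was later with prieurianin than with DMSO for 23 of 30 genes (76.7%, against 43.7% of all genes). Later than in untreated cells it was for 19 of 29 (65.5%), near the 62.1% of all genes. With a least rise of 0.5 it was later than with DMSO for 26 of 37 (70.3%, against 31.8%) and later than in untreated cells for 25 of 37 (67.6%, against 50.9%). DNA replication genes, which act a phase earlier, had median midpoints of 9 h in both controls and 24 h in the 11 that could be read with prieurianin.

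The second question was how far prieurianin cells differed from DMSO cells at the same times. At 9 to 15 h, 28 of the 39 genes were lower with prieurianin and none higher, with a median difference of -0.70 and a range of -1.53 to 0.19. Of all tested genes 10.1% were called lower and 7.96% higher, with a median of -0.01. The difference opened within the window. At 9 h 32 of the 39 genes lay lower (median -0.23), at 12 h 38 did (median -0.68, 11 by over 2-fold) and at 15 h all 39 did (median -1.09, 23 by over 2-fold). Of all tested genes 3.57% at 12 h and 4.02% at 15 h lay lower by over 2-fold. The count was 7 without 15 h, 14 without 12 h and 12 with median centring, so it rests much on the 12 and 15 h arrays. Time was the block that paired the arms: with no time block the count was 10, and with time as a random block 17; without 15 h the median difference was -0.47. On values as deposited, all-gene calls were 507 higher and 1036 lower, against 1018 and 1292 after quantile normalisation, and 24 listed genes were lower.

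**Figure D4:**
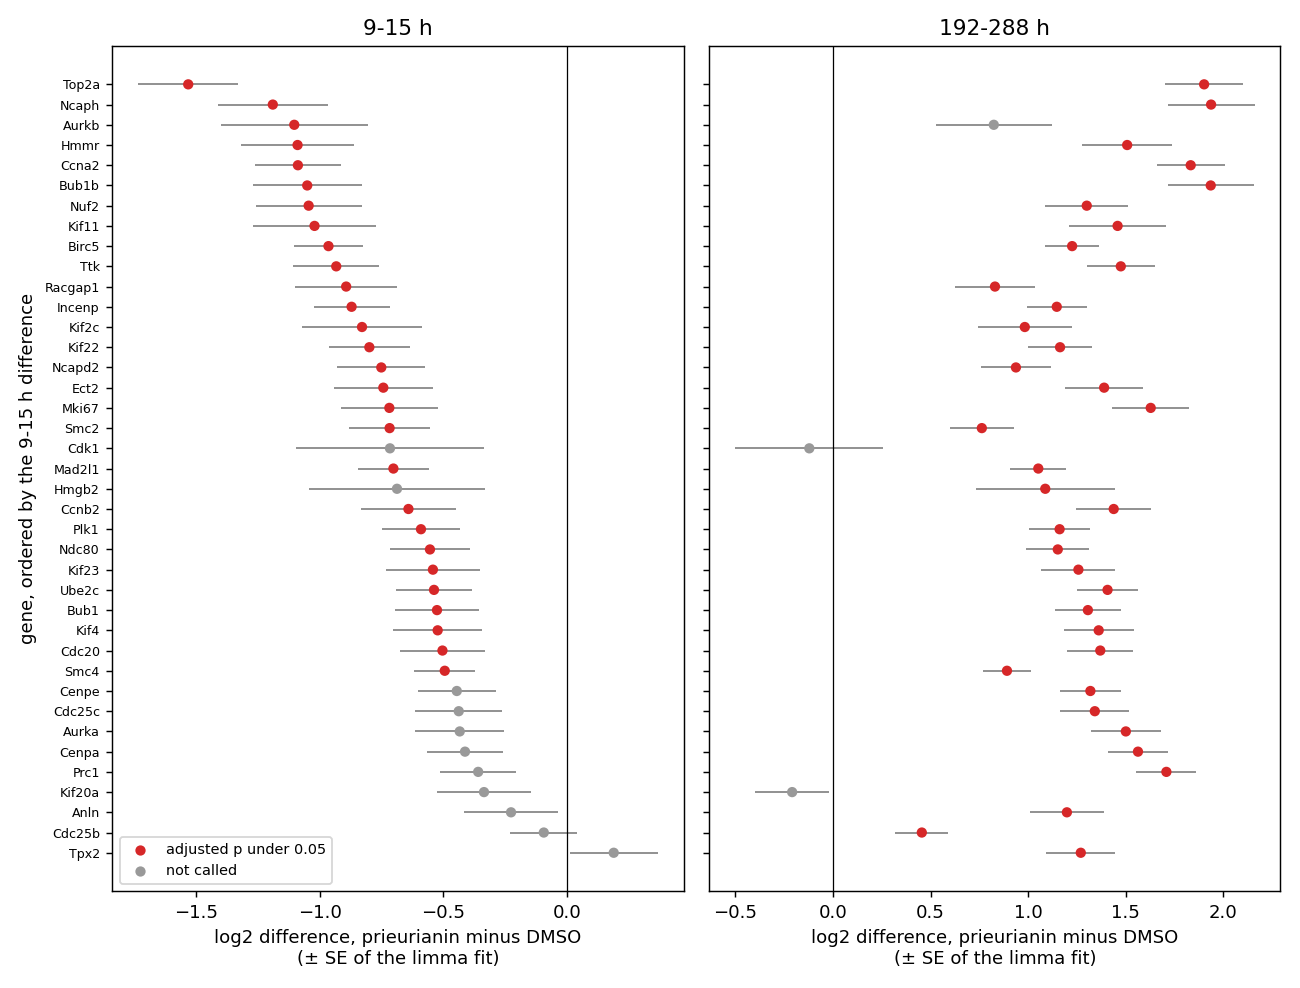
Log2 difference, prieurianin minus DMSO, for each tested gene at 9 to 15 h (left) and 192 to 288 h (right), with ± 1 standard error of the limma fit; red points had an adjusted p under 0.05 and the genes are in the same order in both panels. At 9 to 15 h the points run from -1.53 (Top2a) to 0.19 (Tpx2), and at 192 to 288 h all but Cdk1 and Kif20a lie above 0.

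Among the cyclins, Cdk1 and the Cdc25 phosphatases, 2 of 5 genes were lower. Ccna2, cyclin A2, which drives S phase and entry into mitosis, read 12.60, 12.93 and 13.28 in DMSO cells at 9, 12 and 15 h, and 12.36, 12.74 and 13.08 in untreated cells. With prieurianin it read 12.11, 11.77 and 11.66. All 3 prieurianin arrays lay under all 6 control arrays, with the widest gap at 15 h. The difference from DMSO was -1.09 ± 0.17 (limma adjusted p 5.5e-05), 2.13-fold lower. By 24 h the values were 13.52, 13.62 and 13.30 in untreated, DMSO and prieurianin cells.

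Ccnb2, cyclin B2, read 10.57, 10.78 and 11.48 in DMSO and 10.34, 10.21 and 10.36 in prieurianin cells. Here the groups overlapped with untreated cells, at 10.31, 10.70 and 11.10, and the difference from DMSO was -0.64 ± 0.19 (adjusted p 0.019). Cdc25c, a phosphatase that activates Cdk1, lay lower without passing (-0.44 ± 0.18, adjusted p 0.088). Cdc25b, a phosphatase that starts that activation, differed by -0.09 ± 0.14.

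Of the mitotic kinases 5 of 6 were lower. Aurkb read 10.48, 10.97 and 11.24 in DMSO and 9.77, 9.93 and 9.68 in prieurianin cells, and 10.59, 10.80 and 11.05 in untreated cells. No prieurianin array reached the lowest control, and the difference from DMSO was -1.10 ± 0.30 (adjusted p 0.0094). Bub1b, the checkpoint protein BubR1, read 11.04, 11.50 and 11.58 in DMSO and 10.43, 10.46 and 10.08 in prieurianin cells. Its untreated values, 10.99, 11.38 and 11.26, also lay above all of the latter, and the difference was -1.05 ± 0.22 (adjusted p 0.0011).

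Plk1, the kinase that acts from mitotic entry to cytokinesis, read 11.50, 11.64 and 12.01 in DMSO and 11.25, 11.01 and 11.11 in prieurianin cells. The untreated values of 11.19, 11.54 and 11.86 overlapped with the latter, and the difference from DMSO was -0.59 ± 0.16 (adjusted p 0.0085). Ttk differed by -0.93 ± 0.17 and Bub1, a checkpoint kinase of the kinetochore, by -0.53 ± 0.17, both called. Aurka, the Aurora kinase of the spindle poles, read 11.30, 11.38 and 11.61 in DMSO and 11.28, 11.03 and 10.68 in prieurianin cells. Although these do not overlap, the difference missed the threshold (-0.43 ± 0.18, adjusted p 0.10).

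Both chromosomal passenger partners were lower. Birc5, survivin, which brings Aurkb to the centromere, read 12.04, 12.33 and 12.89 in DMSO and 11.47, 11.41 and 11.49 in prieurianin cells, and 12.29, 12.73 and 13.38 in untreated cells. The prieurianin values lay close together under all control arrays. Birc5 differed by -0.96 ± 0.14 (adjusted p 1.4e-05) and Incenp by -0.87 ± 0.15 (adjusted p 0.00017).

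All 3 genes of the checkpoint and the anaphase-promoting complex were lower. Cdc20, the activator of that complex, read 11.34, 11.43 and 11.46 in DMSO and from 10.63 to 11.09 in prieurianin cells. The gap was small but without overlap, at -0.50 ± 0.17 (adjusted p 0.039), and it missed the threshold in 16 of 28 alternative analyses. Mad2l1, the checkpoint protein Mad2, differed by -0.70 ± 0.14 and Ube2c by -0.54 ± 0.15, both called.

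At the centromere and kinetochore 2 of 4 were lower. Nuf2 and Ndc80, partners in the complex that grips microtubules, differed by -1.04 ± 0.21 and -0.55 ± 0.16. Cenpe, a motor that brings chromosomes to the spindle equator, lay just outside the threshold (-0.45 ± 0.16, adjusted p 0.05002), with Kif23 just inside it (-0.54 ± 0.19, adjusted p 0.047). Cenpa differed by -0.41 ± 0.15 (adjusted p 0.064).

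Of the spindle motors and microtubule factors 6 of 9 were lower. Hmmr, a hyaluronan receptor that also binds the spindle, read 8.10, 8.51 and 8.92 in DMSO and 7.75, 7.45 and 7.06 in prieurianin cells. The untreated values, 7.38, 8.10 and 8.38, overlapped with the latter, and the difference from DMSO was -1.09 ± 0.23 (adjusted p 0.0011). Kif11 read 6.93, 7.49 and 8.09 in DMSO and 6.75, 6.33 and 6.37 in prieurianin cells, with a difference of -1.02 ± 0.25 (adjusted p 0.0040). In untreated cells Kif11 read 6.32, 7.12 and 6.96, a range that holds all 3 prieurianin values.

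The other called motors were Kif2c, which takes apart microtubule ends at centromeres (-0.83 ± 0.24), Kif22, which pushes chromosome arms (-0.80 ± 0.16), Kif23 of the central spindle, and Kif4, which shortens that spindle and binds chromosomes (-0.52 ± 0.18). Tpx2 stood apart in sign, reading 12.84, 13.25 and 13.41 in DMSO and 13.47, 13.31 and 13.29 in prieurianin cells (0.19 ± 0.18, adjusted p 0.54). It was above both controls at 9 h and under both at 15 h. Prc1, which bundles the central spindle, differed by -0.36 ± 0.15 (adjusted p 0.11).

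Of the cytokinesis genes 2 of 3 were lower: Racgap1, a partner of Kif23 in the central spindle (-0.89 ± 0.20), and Ect2, the exchange factor that starts the cleavage furrow (-0.74 ± 0.20). Anln differed by -0.23 ± 0.19 (adjusted p 0.49).

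The genes of chromosome structure held the largest differences, and 6 of 7 were lower. Top2a read 12.30, 12.88 and 12.85 in DMSO cells, 11.68, 12.14 and 12.69 in untreated cells and 11.32, 11.24 and 10.88 in prieurianin cells. No array overlapped, and the gap was widest at 15 h. The difference from DMSO was -1.53 ± 0.20 (adjusted p 4.1e-06), 2.89-fold lower. Ncaph read 11.31, 11.94 and 11.91 in DMSO, 10.86, 11.31 and 11.60 in untreated and 10.46, 10.85 and 10.28 in prieurianin cells, a difference of -1.19 ± 0.22 (adjusted p 0.00035), also without overlap.

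Mki67, the coat protein of mitotic chromosomes known as Ki-67 and used as a marker of dividing cells, read 10.67, 11.26 and 11.43 in DMSO and 10.62, 10.30 and 10.29 in prieurianin cells. At 9 h its arrays were nearly level and at 15 h they were far apart, and the difference was -0.72 ± 0.20 (adjusted p 0.010). The condensin subunits Smc2, Smc4 and Ncapd2 differed by -0.72, -0.49 and -0.75, all called. Hmgb2 read 10.38, 11.01 and 11.83 in DMSO and 10.10, 10.35 and 10.70 in prieurianin cells, and with an error of 0.36 its difference of -0.69 was not called (adjusted p 0.21).

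Against untreated cells, 24 of the 39 were lower at 9 to 15 h (14.8% of all genes) and 1 was higher (12.7%), with a median of -0.58. This comparison uses the same prieurianin arrays as the one with DMSO, so the counts are set side by side and not as independent support. The count was 9 without 15 h, 9 with no time block and 15 with time as a random block. Birc5 showed the largest difference from untreated cells (-1.34 ± 0.14, adjusted p 9.2e-08), followed by Kif2c (-1.14 ± 0.24), Racgap1 (-1.13 ± 0.20) and Smc2 (-1.11 ± 0.16). Cdc25c, Aurka and Cenpa, which missed the threshold against DMSO, were called against untreated cells (-0.63, -0.73 and -0.58). Kif11, Nuf2, Hmmr, Ect2, Plk1, Ccnb2 and Bub1 were called against DMSO and missed the threshold here, at -0.32, -0.26, -0.53, -0.41, -0.41, -0.40 and -0.14 against untreated cells. Over both controls together, all 3 prieurianin arrays lay under all 6 control arrays for 20 of the 39 genes, against 11.5% of all genes tested.

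The gene higher than in untreated cells was Hmgb2, and it differed between the controls as well. In untreated cells it read 9.56, 9.31 and 9.37 at 9, 12 and 15 h, under every DMSO and every prieurianin array. DMSO minus untreated was 1.41 ± 0.36 at 2 to 5 h (adjusted p 0.027, where 2.44% of all genes were called higher), 1.66 at 9 to 15 h (adjusted p 0.0057, 4.72%) and 2.29 at 24 to 48 h (adjusted p 0.000295, 5.57%). Nuf2 was higher in DMSO than untreated cells at 9 to 15 h (0.79, adjusted p 0.024) and 24 to 48 h (0.88, adjusted p 0.0092), and Cdc25b at 24 to 48 h (0.41, adjusted p 0.049). No other listed gene was called between the controls in any of the 6 windows (limma); in order of time, 4, 5, 11, 9, 6 and 3 genes had an unadjusted p under 0.05. The total of 6 calls was 3 without 12 h, 2 with no time block and 3 with time as a random block.

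Before 9 h no listed gene was called between prieurianin and DMSO cells (limma), and none had an unadjusted p under 0.05; of all genes 0% were called either way at 0.25 to 1 h and 0.164% at 2 to 5 h. At 24 to 48 h again none was called (limma), with a median of -0.11, 5 genes at an unadjusted p under 0.05, and 1.25% of all genes called higher and 0.258% lower. The test of the rise itself, the step from 2-5 h to 12-24 h in prieurianin minus that in DMSO cells, had a median of -0.68 over the 39 genes with no call (limma), 10 at an unadjusted p under 0.05, and 0% of all genes called lower. That step joins the 12 and 15 h arrays, where the arms differed, with the 24 h array. Against untreated cells Hmgb2 was higher at 2 to 5 h (1.30, 2.86% of all genes) and at 24 to 48 h (1.69, 5.84%), where Nuf2 was also higher (0.76) and Birc5 (-0.61) and Cdc20 (-0.64) were lower (3.54%); these 4 calls were 2 without 24 h, 1 without 36 h, and 1 with no time block or with time as a random block. The call at 2 to 5 h was lost under both of these.

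From 12-24 h to 36-48 h Incenp (-1.01 ± 0.26) and Smc2 (2.01-fold lower) fell in untreated cells (3.68% of all genes). No listed gene was called in DMSO cells (limma; 7 were lower at an unadjusted p under 0.05, 2.82% of all genes called lower). Kif20a rose in prieurianin cells (0.74 ± 0.20, 2.33%). The untreated calls were lost without 15 h or 48 h, and that of Kif20a when any 1 of 0.5, 12, 15, 36 and 48 h was left out. From 36-48 h to 96-144 h, 14 genes fell in untreated cells (5.68% of all genes), 9 in DMSO cells (3.92%) and none in prieurianin cells (limma; 0.281%), where the median was -1.08 and 33 genes had an unadjusted p under 0.05. The medians in the controls were -0.96 and -1.02. Both control counts were 0 without 36 h or without 144 h, and 4 and 0 with median centring; the prieurianin count was 11 without 192 h, 8 without 24 h and 4 without 288 h. Ube2c fell most in untreated cells (-1.83 ± 0.46) and in DMSO cells fell by 1.44 ± 0.46. Cenpa (-1.75 and -1.33) and Kif23 (-1.65 and -1.40) came next in untreated cells. At 96 to 144 h no listed gene was called between prieurianin and DMSO cells (limma), with a median of -0.18, 9 at an unadjusted p under 0.05, and 2.98% of all genes higher and 2% lower. Against untreated cells Hmgb2 was higher (1.50, 7.04%) and Bub1b (-0.86), Ncaph (-0.85) and Top2a (-0.78) were lower (5.59%), a total of 4 that became 1, 2, 0 and 1 without 5, 12, 96 and 144 h, 0 with no time block and 1 with time as a random block.

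The third question concerned the late part of the course, when control cultures carried high adipocyte markers. From 96-144 h to 192-288 h, 14 listed genes fell further in untreated cells (2.29% of all genes) with a median of -1.07, and 23 in DMSO cells (3.91%) with a median of -1.15. In prieurianin cells none was called (limma), with a median of 0.28, 2 at an unadjusted p under 0.05, and 0.688% of all genes called higher and 1.2% lower. In DMSO cells the largest falls were those of Hmgb2 (-1.98 ± 0.53), Ncaph (-1.93 ± 0.33), Top2a (-1.88 ± 0.33) and Bub1b (-1.84 ± 0.42). The smallest changes there were those of Kif20a (0.08), Anln (-0.23), Cdk1 (-0.40) and Aurkb (-0.52), none called. The untreated count was 1, 8, 9, 7 and 22 without 96, 144, 192, 240 and 288 h, and the DMSO count was 8, 6, 14 and 12 without 96, 144, 192 and 240 h.

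The difference of this step between arms was tested directly. It was larger in prieurianin than in DMSO cells for 7 genes (0.446% of all genes): Bub1b (2.65 ± 0.60), Top2a (2.55 ± 0.47), Ncaph (2.53 ± 0.47), Ccna2 (2.17 ± 0.52), Kif11 (2.14 ± 0.53), Ttk (2.06 ± 0.45) and Incenp (1.53 ± 0.37). Against untreated cells it was larger for 3 (0.383%): Top2a (2.70 ± 0.47), Ncaph (2.29 ± 0.47) and Cenpe (1.70 ± 0.44). Without the prieurianin array at 192 h the counts were 14 and 12. Without 96 h in all arms they were 1 and 0, without 144 h 0 and 1, without 24 h 16 and 13, without 192 h 13 and 7, and the count against untreated cells was 6 without 240 h.

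Set against DMSO at the same times, 36 of the 39 genes were higher with prieurianin at 192 to 288 h and none lower (limma), with a median of 1.30; of all tested genes 9.57% were called higher and 10.5% lower, with a median of 0.01. Without the prieurianin array at 192 h the count was 35, and leaving out any single time gave 32 to 37. Against untreated cells 37 were higher (9.76%), and 36 without that array. At 192 h 36 genes lay higher than in DMSO cells (26 by over 2-fold), at 240 h 37 (24) and at 288 h 37 (33). Of all tested genes 4.58%, 4.71% and 6.39% lay higher by over 2-fold at these times. The 3 prieurianin arrays lay above all 6 control arrays for 23 of the 39, against 5.08% of all genes. On values as deposited the all-gene calls were 528 higher and 1096 lower, against 1224 and 1340, and 34 listed genes were higher.

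**Figure D5:**
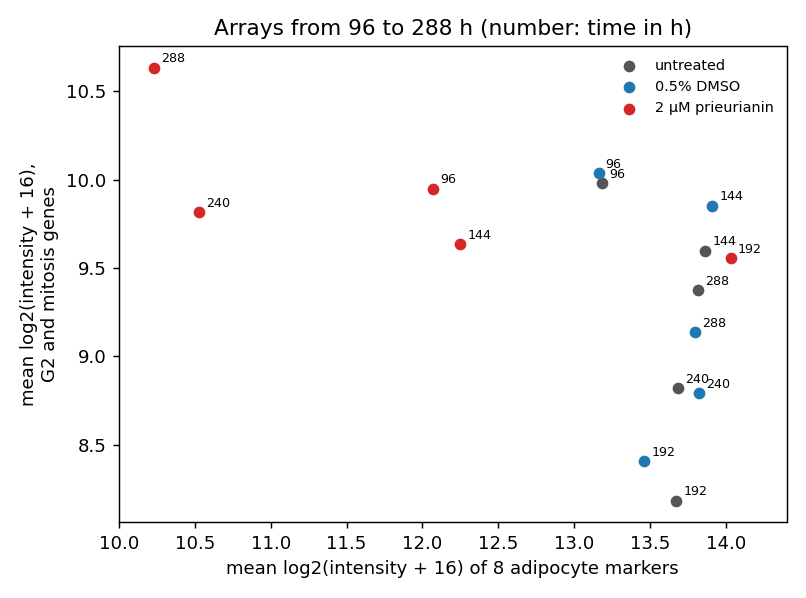
Arrays from 96 to 288 h, with the mean log2(intensity + 16) of 8 adipocyte markers on the horizontal axis and that of the tested G2 and mitosis genes on the vertical axis; each point is 1 array, labelled with its time in h. Prieurianin arrays at 240 and 288 h lie at 10.53 and 10.23 on the marker axis, left of all others. The prieurianin array at 192 h lies at 14.03, right of all controls on that axis, and above their 192 to 288 h values on the other.

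The adipocyte marker mean is given beside this result. At 96 and 144 h the marker mean, prieurianin minus DMSO, was already -1.09 and -1.66. The mean of the listed genes then differed by -0.09 and -0.22. The marker mean at 192 to 288 h lay between 13.46 and 13.83 in the controls. With prieurianin it was 10.53 and 10.23 at 240 and 288 h. At 192 h it was 14.03, on the array that stood apart from the later arrays of its arm. The mean of the listed genes differed from DMSO cells by 1.15, 1.03 and 1.50 at 192, 240 and 288 h. The part of differentiation state in the difference was not tested.

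Among the cyclins, Cdk1 and Cdc25 genes, 4 of 5 were higher. Ccna2 read 9.42, 9.69 and 10.30 in DMSO cells at 192, 240 and 288 h and 11.22, 11.27 and 12.42 in prieurianin cells. Untreated values of 8.95, 10.05 and 10.65 also lay under all of these. The difference from DMSO was 1.83 ± 0.17 (adjusted p 5.4e-08), and 1.71 without the prieurianin array at 192 h. Ccnb2 was higher by 1.44 ± 0.19, Cdc25c by 1.34 ± 0.18 and Cdc25b by 0.46 ± 0.14. Without that array Cdc25b was no longer called (0.38, adjusted p 0.064).

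Of the mitotic kinases 5 of 6 were higher. Bub1b read 8.47, 8.60 and 9.16 in DMSO, 8.52, 9.48 and 9.97 in untreated and 9.98, 10.47 and 11.58 in prieurianin cells. The lowest prieurianin value was just above the highest control. The difference from DMSO was 1.94 ± 0.22 (adjusted p 8.8e-07), 3.83-fold higher. Aurka was higher by 1.50 ± 0.18, Ttk by 1.48 ± 0.17, Bub1 by 1.31 ± 0.17 and Plk1 by 1.16 ± 0.16.

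Aurkb was the exception, and its 192 h array decided the call. It read 9.08, 8.61 and 8.90 in DMSO and 8.70, 9.83 and 10.53 in prieurianin cells, so that the 192 h value lay within the controls. The difference was 0.82 ± 0.30 (adjusted p 0.051), and without the prieurianin array at 192 h it was 1.39 (adjusted p 0.00037). Its partners Birc5 and Incenp were both higher, by 1.23 ± 0.14 and 1.15 ± 0.15. Birc5 read 9.59, 9.70 and 10.21 in DMSO and 10.46, 10.97 and 11.75 in prieurianin cells.

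The 3 checkpoint and anaphase-promoting complex genes were all higher: Ube2c by 1.41 ± 0.15, Cdc20 by 1.37 ± 0.17 and Mad2l1 by 1.05 ± 0.14. Cdc20 read 8.60, 9.18 and 9.34 in DMSO and 10.01, 9.93 and 11.30 in prieurianin cells, without overlap with these or with untreated cells at 8.63, 9.50 and 9.72. All 4 centromere and kinetochore genes were higher, from 1.15 (Ndc80) to 1.56 (Cenpa). Cenpa read 10.67, 11.04 and 11.73 in DMSO and 12.22, 12.39 and 13.52 in prieurianin cells.

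Of the spindle motors and microtubule factors 8 of 9 were higher. Prc1 had the smallest adjusted p of the listed genes, 2.6e-08, with a difference of 1.71 ± 0.15. It read 10.31, 10.74 and 11.36 in DMSO and 11.76, 12.34 and 13.43 in prieurianin cells. Tpx2, which was not lower at 9 to 15 h, was higher late by 1.27 ± 0.18, and reached 13.77 at 288 h against 12.03 in DMSO cells. Kif11 (1.46 ± 0.25), Hmmr (1.51 ± 0.23), Kif4 (1.36 ± 0.18), Kif23 (1.26 ± 0.19), Kif22 (1.16 ± 0.16) and Kif2c (0.98 ± 0.24) made up the rest. The 3 cytokinesis genes were higher by 1.39 (Ect2), 1.20 (Anln) and 0.83 (Racgap1).

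All 7 genes of chromosome structure were higher. Ncaph read 8.38, 8.43 and 8.69 in DMSO and 9.61, 10.44 and 11.27 in prieurianin cells, the largest difference of the list at 1.94 ± 0.22 (adjusted p 9.4e-07). Top2a read 9.13, 9.59 and 10.05 in DMSO, 8.82, 9.72 and 10.17 in untreated and 11.50, 10.95 and 12.03 in prieurianin cells. Its difference was 1.90 ± 0.20 (adjusted p 2.8e-07), and 1.60 without the prieurianin array at 192 h. Mki67 read 8.34, 9.21 and 9.66 in DMSO and 9.96, 10.56 and 11.57 in prieurianin cells.

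The Mki67 values did not overlap, and the difference was 1.63 ± 0.20 (adjusted p 1.6e-06). The condensin subunits Smc2, Smc4 and Ncapd2 were higher by 0.76, 0.89 and 0.94. Hmgb2 was higher by 1.09 ± 0.36 (adjusted p 0.031), and without the prieurianin array at 192 h it was not called (0.91, adjusted p 0.10).

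The largest late differences, at 192 to 288 h, were those of Top2a, Ncaph, Ccna2 and Bub1b, at 1.90, 1.94, 1.83 and 1.94. These genes also had large differences at 9 to 15 h, read from other arrays, at -1.53, -1.19, -1.09 and -1.05. Other genes did not pair in this way, among them Prc1 (-0.36 and 1.71), Cenpa (-0.41 and 1.56) and Racgap1 (-0.89 and 0.83). Aurkb was at -1.10 and 0.82, the latter 1.39 without the prieurianin array at 192 h. A relation over the whole list was not tested.

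A pair of listed genes was called against DMSO neither at 9 to 15 h nor at 192 to 288 h, and both had dim probes. Cdk1, the kinase at the centre of mitotic entry, had a probe found through its older symbol, with a mean of 6.11 close to the filter at 6.07. It read 6.97, 6.37 and 6.32 in DMSO and 6.27, 5.57 and 5.68 in prieurianin cells at 9 to 15 h, a difference of -0.72 ± 0.38 (adjusted p 0.22). That estimate was close to the list median of -0.70, with a wide error. At 192 to 288 h the difference was -0.12 ± 0.38, and a single prieurianin array, at 96 h, read 8.22. Kif20a, with a mean of 6.41, stayed between 5.87 and 6.67 on all untreated arrays. The correlation of each gene with the list mean over the 54 arrays, which share their quantile distribution, was 0.01 for Kif20a and 0.36 for Cdk1, then 0.77 for Hmgb2 and 0.85 for Cdc25b, the lowest of the list.

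Genes around the listed ones were counted from further lists drawn up by name, with earlier results of these data known. Between prieurianin and DMSO cells at 9 to 15 h, 10.1% of all tested genes were called lower and 7.96% higher. Of 79 other tested G2 and mitosis genes, 56 were lower and 1 higher in that comparison, with a median of -0.66. The largest differences were those of Mxd3, a Max-binding repressor (-1.37), Spc24, a kinetochore subunit (-1.14), and Kif15, a spindle motor (-1.10); Gas2l3, which links actin and microtubules, was higher (0.94, adjusted p 0.0058). Of 49 replication genes 43 were lower and none higher, with a median of -0.91, led by Wdhd1, a replisome factor (-1.85), Cdc6, which loads the replicative helicase (-1.79), and the thymidine kinase Tk1 (-1.71). At 192 to 288 h, 62 of the other G2 and mitosis genes and 34 of the replication genes were higher, and 1 and 0 lower. Of all tested genes 9.57% were called higher and 10.5% lower there.

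The upstream regulators, cyclins of G1, E2F factors, Rb proteins and Cdk inhibitors, were counted too: 10 of 33 were lower and 2 higher at 9 to 15 h, beside 10.1% and 7.96% of all genes, with a median of -0.26. Ccnd1, cyclin D1, which answers growth signals in G1, was lower by the largest amount (-1.51 ± 0.25), and Mybl2, the B-Myb factor of G2 promoters, was lower at -1.19 ± 0.22. The 2 higher, no larger a share than among all genes, were Cdkn1a, the Cdk inhibitor p21 (0.50, adjusted p 0.023), and Rb1, the retinoblastoma protein (0.48, adjusted p 0.0041). At 192 to 288 h, 4 regulators were higher, among them E2f5 (0.85) and E2f3 (0.72), and 2 were lower, Cdkn2a (-1.01) and Ccnd1 (-0.97), counts near the all-gene shares of 9.57% and 10.5%.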

How the data were processed

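Total RNA was amplified to amino allyl RNA with an oligo(dT) primer, coupled to Cy5 and hybridised to a Phalanx mouse oligonucleotide array, per the labels' protocols. The deposited table was read as intensity on a linear scale, since its values ran from -83 to 65497; the scanner, background correction and scaling are not given in the sources used here. Arrays were quantile normalised, floored at 0 and taken as log2(intensity + 16), a scale on which dim genes show less change than they had. A single gene symbol was held by 21020 of 29922 probes and was updated through RefSeq. A gene was read from its brightest probe and kept above a mean of 6.07, the lower quartile. For the 8 listed genes with several probes, these had the same sign as the brightest probe at 9-15 h and 192-288 h, except a dim Cenpe probe late. No listed probe was saturated.

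Arms were compared with limma 3.58.1 (R 4.3.3). Time was a factor and each window had its own arm effect, on 51 arrays without 0 h and with 22 residual degrees of freedom. Steps within arms were fitted on 54 arrays, taking 1 mean for each window of each arm (33 degrees of freedom). P-values were Benjamini-Hochberg adjusted over 12792 genes at a threshold of 0.05. The procedure was tested on simulated data. The number of arrays limits the precision.

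The members and lists were chosen with earlier results of these data known. Named genes were 10 well-known members, those with the largest or smallest changes in the early rise, the 9-15 h difference and the late step, and the 15 genes most like the list mean; further members are named to complete each role. Alternatives were the normalisation, offset, filter, probe choice, time block, arms fitted alone, each time left out, and, added after seeing the data, other windows and the prieurianin array at 192 h left out.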

Additional observations from a re-analysis of the deposited data

Results flagged for a closer look

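The step from 96-144 h to 192-288 h differed between arms by a direct test for a few of the 39 genes. It was larger in prieurianin than in DMSO cells for 7 genes and larger than in untreated cells for 3, with 0.446% and 0.383% of all tested genes called in that direction. Only Top2a and Ncaph were called against both controls. The counts were 1 and 0 without 96 h, and 0 and 1 without 144 h. In prieurianin cells the step of Top2a was 0.67 ± 0.33 and not called (adjusted p 0.33), and in DMSO and untreated cells it fell by 1.88 and 2.03. Both comparisons use the same prieurianin arrays. Adipocyte markers differed between the arms at the same times, and their part was not tested.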

How the results depend on the processing

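Single-gene values were recomputed only for the well-known listed genes and those with the largest or smallest changes. The comparisons were prieurianin minus DMSO at 9-15 h and at 192-288 h, and the DMSO rise at 12-24 h. List means, prieurianin minus each control at 9-15 h and 192-288 h, were recomputed in 7 settings of normalisation, offset, filter and probe choice. None of these called values or list means changed sign. The median of all genes did: for the DMSO rise at 12-24 h it was 0.04 as reported and -0.09 with median centring, and for prieurianin minus DMSO at 192-288 h 0.01 and, on values as deposited, -0.06. Of 1596 values of single genes under 31 settings, 1494 kept their side of the threshold, 78 lost it and 24 gained it. Steps are named by their later window.

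With median centring the count lower than DMSO at 9-15 h was 12 of 39 (28 as reported). Counts against untreated cells were 0 before 9 h, 1 at 24-48 h and 0 at 96-144 h, and DMSO against untreated gave 3. In untreated cells 0, 4, 4 and 6 were called at 2-5, 36-48, 96-144 and 192-288 h; in DMSO cells 0, 5 and 0 at 2-5, 12-24 and 96-144 h; in prieurianin cells 3 and 0 at 2-5 and 36-48 h. With values as deposited, counts against untreated cells were 0 before 9 h and 2 at 24-48 h; untreated steps gave 34, 4, 4 and 7 at 2-5, 36-48, 96-144 and 192-288 h, DMSO steps 9, 3 and 9 at 2-5, 96-144 and 192-288 h, prieurianin steps 20 and 0 at 2-5 and 36-48 h, and the late step against DMSO 3. On that scale the median of all genes was -0.24 for prieurianin minus untreated at 9-15 h (listed genes -0.88, with 649 genes higher and 3045 lower against 1620 and 1889), 0.35 for the untreated rise at 12-24 h (1.39; 3059 and 301 against 1078 and 810) and 0.24 for the DMSO rise (0.99; 1030 and 420 against 909 and 976, and 247 and 1006 with median centring). For prieurianin minus untreated at 192-288 h it was -0.13 (1.13; 526 and 1295 against 1248 and 1186).

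Cyclic loess gave 4 at 36-48 h in untreated cells and 5 for the late step against untreated; an offset of 64 gave 4 and, in DMSO cells, 1 at 36-48 h; the mean of all probes gave 1 there. Without the filter 5 fell at 96-144 h in DMSO and 3 at 2-5 h in prieurianin cells. Arms fitted in pairs gave 2 and 1 against untreated cells at 24-48 and 96-144 h. Each arm fitted alone gave 11, 2 and 23 in DMSO cells at 2-5, 36-48 and 96-144 h and 0 and 0 in prieurianin cells at 2-5 and 36-48 h.

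Time was the block that paired the arms. With no replicate block (no time term) 10 genes were lower than DMSO and 9 lower than untreated at 9-15 h, with 0, 1 and 0 called against untreated before 9 h, at 24-48 and at 96-144 h, and 2 for DMSO against untreated. With time as a random block (consensus correlation 0.20) these were 17, 15, 0, 1, 1 and 3. With windows of 9-15 and 24-48 h, chosen after seeing the data, 4 untreated and 6 DMSO genes rose by 9-15 h, none was called from there to 24-48 h in untreated cells (limma; 2 at an unadjusted p under 0.05), 8 rose there in prieurianin cells, and 1 had a smaller early rise than with DMSO.

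Leaving out single times, the ranges at 2-5 h were 0 to 12 in untreated, 0 to 11 in DMSO and 0 to 11 in prieurianin cells (7, 3 and 6 reported; 24 h gave the highest, and 3 h or 5 h left out gave 0). At 12-24 h they were 13 to 28, 6 to 26 and 0 to 1; at 36-48 h 0 to 5, 0 to 2 and 0 to 3; at 96-144 h 0 to 19, 0 to 19 and 0 to 11, with 0 in both controls without 36 h or 144 h; and at 192-288 h 1 to 22, 6 to 31 and 0 to 1. For prieurianin minus DMSO they were 0 to 0 before 9 h, 7 to 33 at 9-15 h, 0 to 0 at 24-48 h, 0 to 2 at 96-144 h and 32 to 37 late; minus untreated 0 to 3, 9 to 31, 1 to 6, 0 to 6 and 34 to 37. DMSO against untreated ranged from 3 to 7. Differences of steps ranged against DMSO from 0 to 3, 0 to 0 and 0 to 16 (early, 36-48 h, late) and against untreated from 0 to 6, 0 to 1 and 0 to 13. Named genes at 9-15 h kept their call in 28 of 28 alternatives for Top2a, Ccna2, Birc5, Ncaph and Ttk; Plk1 and Mki67 lost it in 5.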

Other observations

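The 15 tested genes outside the list whose values over the 54 arrays were closest to the mean of the 39 listed genes were all found in the list of other G2 and mitosis genes. Pearson r, over arrays that share their quantile distribution, ran from 0.982 for Tacc3, a spindle protein that binds microtubules with clathrin, to 0.955 for Knl1, a kinetochore scaffold. Plk4, the kinase that starts centriole duplication, had 0.979, Ncapg, a condensin I subunit, 0.975, and Shcbp1 and Cdca3 0.969 each. The others were Mastl, the Greatwall kinase, the motors Kif20b and Kif15, the abscission protein Cep55, the kinetochore proteins Spc25 and Kntc1, and the spindle proteins Troap, Dlgap5 and Aspm.

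These genes were selected for likeness to the list, so their differences are given as a description. Prieurianin minus DMSO at 9 to 15 h ran from -1.10 (Kif15) to -0.35 (Dlgap5), and Dlgap5 and Aspm missed the limma threshold. At 192 to 288 h the difference ran from 0.84 (Kif15) to 1.85 (Spc25), with all 15 called. In the early rise of DMSO cells 45 of 79 other G2 and mitosis genes and 45 of 49 replication genes rose and none fell. Of all tested genes 7.11% were called higher in that step.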
